A study of Rattus norvegicus with 12 samples.

Results

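Cyclic AMP is the messenger through which catecholamines act on fat cells, and the genes described here build, degrade, read and place it. Members were all genes of the array whose name starts with Adcy, Pde, Prkac, Prkar or Akap followed by a number or letter of those families. They are the adenylyl cyclases, cyclic nucleotide phosphodiesterases, subunits of protein kinase A (PKA) and A-kinase anchoring proteins, 54 of the 26541 gene names on the array. The rule uses the name alone and no measured value, and the families were picked with earlier results of these data known. A set of 3 names, Pde4dip, Pde4dl1 and Pde6d, matches although the products are not counted as phosphodiesterase enzymes, and they were kept apart.

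Adenylyl cyclases are activated by receptors that couple to the stimulatory G protein Gs, such as the beta-adrenergic receptors, and are restrained by receptors that couple to Gi. Cyclic AMP binds the regulatory subunits of PKA and frees the catalytic subunits, which in adipocytes phosphorylate hormone-sensitive lipase and perilipin and so start lipolysis. Phosphodiesterases end the signal, with Pde3b as the enzyme through which insulin lowers cyclic AMP in fat, and anchoring proteins hold PKA, phosphodiesterases and phosphatases near chosen substrates.

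The arrays were made from epididymal fat cells of male Fisher 344 rats, about 12 weeks old when purchased, with 1 array per rat. The 6 CUS rats went through 35 days of chronic unpredictable stress with 2 stressors per day, and the 6 control rats were handled every 2 days for weighing. The labels name adipocytes as the cell type, while their text on RNA isolation speaks of preadipocytes. The signal of a probe, a short DNA strand on the slide, is given as log2 signal, its log2 intensity minus that of the 75th percentile of its array, so 0 is the level of that percentile and a difference of 1 is a 2-fold change. A probe entered the test when 6 or more of the 12 arrays showed it well above background, and a gene was read by its brightest tested probe. A difference was called when its limma p, adjusted by the Benjamini-Hochberg method over all tested probes, was under 0.05.

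Each group was hybridised on a slide of its own with a scan of its own, so that effects of slide, scan and stress cannot be told apart here. The 75th percentile was an intensity of 541 to 627 on the CUS arrays and of 229.5 to 399.7 on the control arrays. Raw spike-in signals differed by -0.05 between the groups (exact permutation test, two-sided, p = 0.73), so scaling to the spike-ins adds the same 0.83 to every difference between group means and moves the median difference of all genes from -0.03 to 0.80. Every direction below is relative to the 75th percentile. All 6 tested red blood cell markers were higher in the CUS arrays, with a median difference of 4.34 and a summed log2 level of 10.75 to 11.20 against 5.64 to 7.16 in controls. The summed log2 level of a list is the log2 of the summed unlogged signals of its tested markers, so the brightest markers weigh most. Mast cell markers were higher in 6 of 7 and mesothelial markers in 4 of 5, and in 7 of 7 and 4 of 5 with spike-in scaling. After normexp background correction 5 mast cell markers were higher and 1 lower, and 3 mesothelial markers were higher. The mast cell markers Ms4a2 and Cpa3 were well above background on 6 CUS arrays but on 0 and 1 control arrays, so they passed the filter through the CUS arrays. Among all tested genes 24.2% were higher and 25.8% lower. The shares were 63.8% and 2.55% with spike-in scaling, and 22.9% and 44% after normexp background correction. All 8 adipocyte markers were tested, 3 of them higher and 2 lower, or 6 higher and 0 lower with spike-in scaling, and their summed log2 level was 10.38 to 10.65 in CUS and 10.32 to 11.29 in controls. In bulk RNA, fewer cells of a type and less RNA per cell cannot be told apart.

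Of the 54 members, 40 were tested, 34 of them well above background on all 12 arrays. In the CUS rats 14 members were lower and 5 were higher, while 21 did not pass the test. Over all 17417 tested genes, 25.8% were lower and 24.2% were higher, so the members' shares of 35% lower and 12.5% higher lay above and below those of the whole array, a contrast that was not tested. At a fold of at least 2, 5 members were lower and 0 were higher, against 8.79% and 3.24% of all genes. The 5 were Adcy9, Akap5, Pde1a, Pde5a and Pde6a. The median difference was -0.22 over the 40 tested members and -0.03 over all tested genes. Quantile normalization left 9 members lower and 4 higher, against 20.6% and 27% of all genes, and scaling to the spike-ins gave 2 lower and 21 higher, against 2.55% and 63.8%. Normexp background correction gave 21 lower and 3 higher, against 44% and 22.9%.

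**Figure D1:**
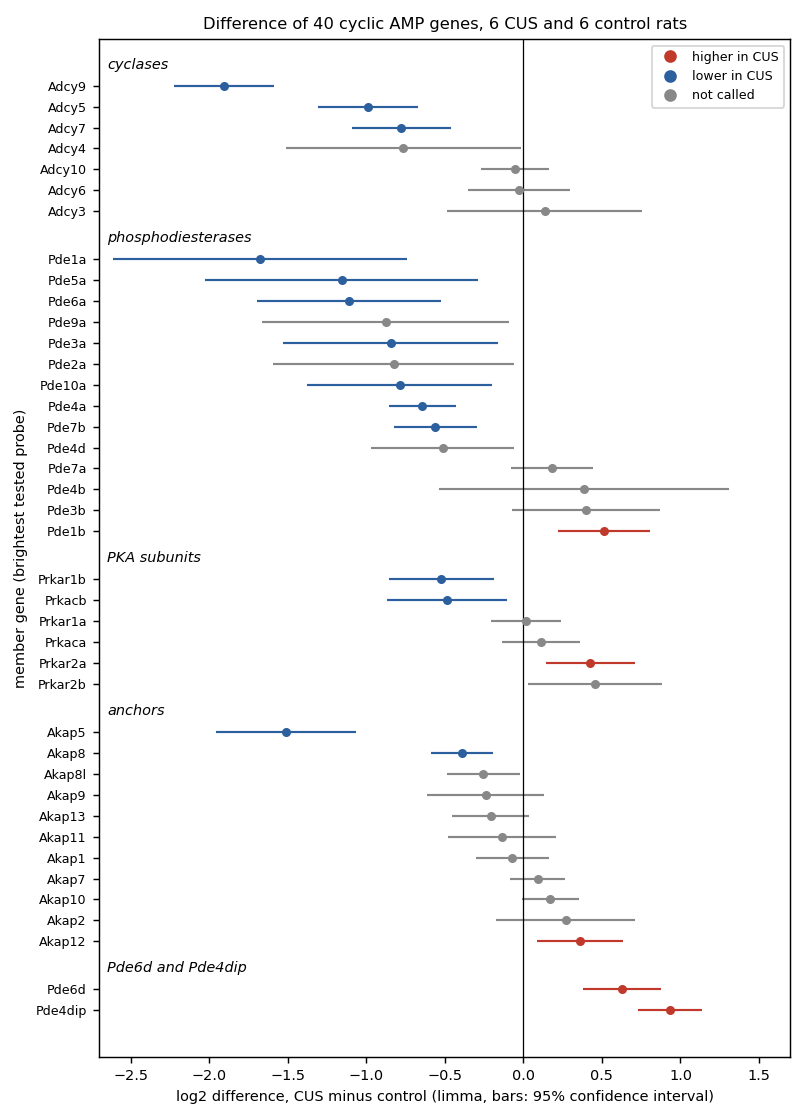
Log2 difference between CUS and control (horizontal axis, relative to the 75th percentile of each array) for each of the 40 tested members, grouped by role, with the 95% confidence interval of the limma fit as a bar. The cyclases and phosphodiesterases reach from -1.91 (Adcy9) to 0.51 (Pde1b) with most estimates below 0, and the PKA subunits lie between -0.52 and 0.46. With spike-in scaling every point moves by 0.83 to the right.

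Of the 10 adenylyl cyclases 7 were tested, and 3 were lower in CUS, 0 higher and 4 not called, with a median difference of -0.77, beside 25.8% lower and 24.2% higher among all genes. Scaling to the spike-ins gave 1 lower and 3 higher with a median of 0.06, against 2.55% and 63.8% of all genes. Normexp background correction gave 6 lower and 0 higher, against 44% and 22.9%. Adcy9 encodes a cyclase that many tissues express and that responds poorly to forskolin. Its log2 signal ran from -3.08 (lowest) over -2.98 (median) to -2.71 (highest) in CUS and from -1.75 over -0.93 to -0.82 in controls. The groups did not overlap, and the highest CUS rat lay below the lowest control, which was control replicate 3. The difference was -1.91 ± 0.15 (SE, n = 6 and 6), 3.75-fold lower in CUS (limma adjusted p = 2.65e-06). It stayed called under all 24 alternatives tried, between -2.05 and -1.08. The position of the Adcy9 probe is not mapped in rn4, the rat genome build of the array design.

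Adcy5 and Adcy7 were the other called cyclases. Adcy5 is a calcium-inhibited isoform, and its probe lies on chromosome 11 at 67290990 to 67291049 of rn4. Its log2 signal was 0.35, 0.50 and 0.66 (lowest, median and highest) in CUS and 1.15, 1.42 and 2.00 in controls. The groups were clear of each other, with a difference of -0.99 ± 0.15 (adjusted p = 0.000225) that shrank to -0.16 and was no longer called with spike-in scaling. Adcy7, an isoform that the G protein beta-gamma subunits stimulate, had values of -4.84, -4.45 and -4.18 in CUS and -4.11, -3.70 and -3.24 in controls. Again no CUS rat reached the lowest control, and the difference was -0.78 ± 0.15 (adjusted p = 0.00103), which spike-in scaling turned to 0.05. The second Adcy7 probe was lower too, by a difference of -0.94 ± 0.32 (adjusted p = 0.0254).

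Adcy4 and Adcy7 share stimulation by beta-gamma subunits, but Adcy4 did not pass. Its log2 signal was -2.49, -1.88 and -1.34 in CUS and -2.73, -0.97 and -0.37 in controls, and the lowest control, replicate 3, was below every CUS rat. The difference of -0.77 ± 0.35 had an adjusted p of 0.081, and without control replicate 3 it was -1.08 with an adjusted p of 0.000987. Adcy3, the calcium-stimulated isoform of olfactory neurons that fat also expresses, differed by 0.14 ± 0.29, Adcy6, the close relative of Adcy5, by -0.03 ± 0.15, and the soluble, bicarbonate-sensitive Adcy10 by -0.06 ± 0.10. None of these 3 passed, and normexp background correction turned Adcy3 to -0.45. The Adcy6 probe matches rn4 over 25 of its 60 bases. Adcy1 and Adcy8, the neuronal isoforms, were never well above background, and Adcy2 was so on 1 CUS array only.

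**Figure D2:**
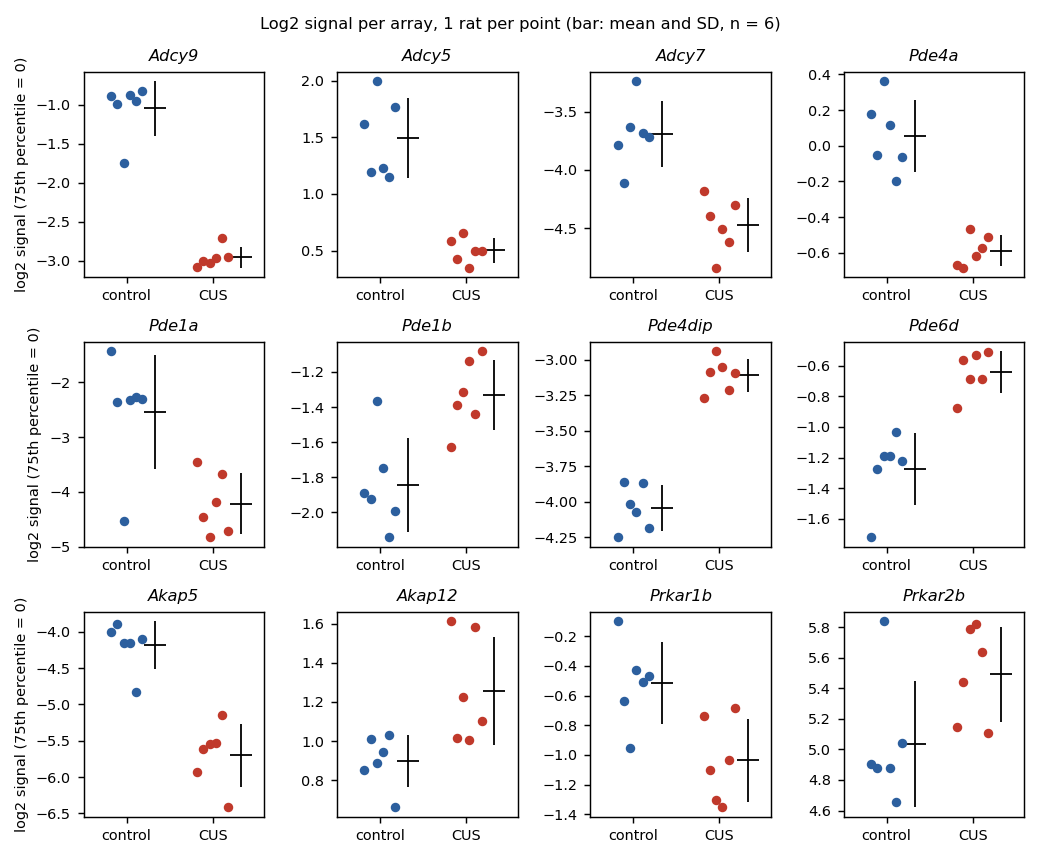
Log2 signal of 12 members on each array (vertical axes, 75th percentile of the array = 0), with 1 point per rat and the mean and SD of each group (n = 6) beside the points. Adcy9, Adcy5, Adcy7, Pde4a and Akap5 are lower in every CUS rat than in any control and Pde4dip and Pde6d are higher in every CUS rat, on this scale. Spike-in scaling would raise the CUS mean by 0.83 against the control mean and would turn the differences of Adcy7, Pde4a and Prkar1b. The single low control point of Adcy9 and Pde1a and the single high one of Prkar2b are control replicate 3.

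Of the 20 phosphodiesterase genes 14 were tested, and 7 were lower, 1 higher and 6 not called. Of all genes 25.8% were lower and 24.2% higher. The median difference was -0.72, and 0.11 with spike-in scaling, which left 0 lower and 4 higher, against 2.55% and 63.8% of all genes. Normexp background correction gave 9 lower and 0 higher, against 44% and 22.9%. Quantile normalization kept 2 lower and 1 higher, against 20.6% and 27%. Among the cyclic AMP-specific Pde4 enzymes, Pde4a was called. Its log2 signal was -0.68, -0.60 and -0.47 in CUS and -0.20, 0.03 and 0.36 in controls, with no overlap and the smallest SD of any tested member in CUS. The difference was -0.64 ± 0.10 (adjusted p = 0.000283), 0.19 with spike-in scaling, and the dimmer second Pde4a probe differed by -0.17 ± 0.17 and was not called. Pde4d, with -0.51 ± 0.21 (adjusted p = 0.0578), and Pde4b, with 0.39 ± 0.43 (adjusted p = 0.464), did not pass. Pde4d passed without CUS replicate 1 (-0.63, adjusted p = 0.0223) or control replicate 5 (-0.59, adjusted p = 0.044). Pde4b had the largest SD of any tested member in controls, 1.07, with control replicate 3 at -4.72 and the next control at -2.32. Without that control the difference of Pde4b turned to -0.04.

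The calcium- and calmodulin-dependent Pde1 enzymes split. Pde1a ran from -4.83 over -4.32 to -3.46 in CUS and from -4.54 over -2.32 to -1.43 in controls. Control replicate 3 lay inside the CUS range and the other 5 controls lay above it, and the difference was -1.68 ± 0.43 (3.20-fold lower, adjusted p = 0.00686), -2.08 without that control and -0.85, no longer called, with spike-in scaling. Pde1b had values of -1.63, -1.35 and -1.08 in CUS and -2.14, -1.91 and -1.36 in controls. These ranges overlapped, and the difference was 0.51 ± 0.14 (adjusted p = 0.00769), the one phosphodiesterase enzyme called higher. It was 0.24 and not called after normexp background correction. Pde1c was never well above background.

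Pde3b is the insulin-activated phosphodiesterase of adipocytes. Its log2 signal was 0.75, 1.28 and 1.57 in CUS and 0.36, 0.73 and 1.66 in controls, and the highest value was that of control replicate 3. The difference of 0.40 ± 0.22 did not pass (adjusted p = 0.142), and without that control it was 0.57 (adjusted p = 0.0126). Pde3a, the isoform better known from heart, platelets and vascular muscle, was lower by a difference of -0.85 ± 0.32 (adjusted p = 0.0405) and -0.02 with spike-in scaling. It was well above background on 2 CUS and 4 control arrays only, and leaving out any rat but CUS replicate 1 or control replicate 3 lost the call (adjusted p up to 0.0873). Its unscaled intensities of 5.80 to 15.2 in CUS and 2.77 to 13.8 in controls overlapped.

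For such dim probes the scale itself differs, because the median log2 signal of probes not well above background averaged -7.65 on the CUS arrays and -6.82 on the controls. The same holds for Pde6a, a photoreceptor enzyme for cyclic GMP that was well above background on 3 arrays of each group. Its difference was -1.11 ± 0.27 (adjusted p = 0.00506), not called with quantile normalization or spike-in scaling.

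Several enzymes act on cyclic GMP, alone or with cyclic AMP. Pde5a, the cyclic GMP-specific enzyme of vascular smooth muscle, ran from -4.04 over -3.92 to -2.95 in CUS and from -4.45 over -2.28 to -1.52 in controls. Control replicate 3 was the lowest of all 12 rats, and the difference was -1.16 ± 0.40 (2.23-fold lower, adjusted p = 0.0299). It was -1.54 (adjusted p = 0.000132) without control replicate 3, and -0.33, no longer called, with spike-in scaling. The call held only without that control or without CUS replicate 1 or 5, and leaving out any of the other 9 rats lost it, with an adjusted p of up to 0.0652.

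Pde2a, which cyclic GMP stimulates to break down cyclic AMP, differed by -0.83 ± 0.35 (adjusted p = 0.0679), and Pde9a, specific for cyclic GMP, by -0.88 ± 0.36 (adjusted p = 0.0604). Neither passed, and without control replicate 3 both did, at -1.16 (adjusted p = 0.000545) and -1.24 (adjusted p = 0.000178). Pde10a, which takes both nucleotides and is best known from the striatum, was called at -0.79 ± 0.27 (adjusted p = 0.0295) and turned to 0.04 with spike-in scaling. The call of Pde10a was lost without CUS replicate 2, 3 or 4 or control replicate 1 or 2, with an adjusted p of up to 0.0633. Of the cyclic AMP-specific Pde7 enzymes, Pde7b was lower by both probes, at -0.56 ± 0.12 (adjusted p = 0.0026) and -0.76 ± 0.15 (adjusted p = 0.00142), and spike-in scaling turned the first to 0.27. Pde7a differed by 0.18 ± 0.12 and was not called. Pde8a and Pde8b, the high-affinity cyclic AMP enzymes, were never well above background.

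The summed levels of endothelial, smooth muscle and stromal markers were below the other 5 controls in every CUS rat and in control replicate 3. The same was so for Pde1a, Pde2a, Pde5a and Pde9a. Pde4a, Pde6a and Pde7b were called lower, but control replicate 3 was not their lowest control, and Pde1b was called higher. Of 8 tested endothelial markers 5 were lower in CUS and 0 higher, and of 8 smooth muscle and pericyte markers 5 were lower and 1 higher. Of 8 preadipocyte and stromal markers 3 were lower and 0 higher, and Dpp4 (0.50), Dcn (0.23) and Lum (0.38), not called, had differences above 0. Of all tested genes 25.8% were lower and 24.2% higher. The summed log2 level of the endothelial list was 4.33 to 5.34 in CUS, 4.27 in control replicate 3 and 5.75 to 6.40 in the other 5 controls. That of the smooth muscle list was 3.68 to 4.34, 3.73 and 4.63 to 5.71, and that of the stromal list 5.51 to 6.72, 5.55 and 6.93 to 7.25. With spike-in scaling 0 endothelial, 2 smooth muscle and 0 stromal markers were lower, against 2.55% of all genes. On that scale 0, 1 and 3 were higher, against 63.8%. The medians of the endothelial, smooth muscle and stromal lists were then 0.11, -0.54 and 0.046. No marker of these lists stayed below background on every array, and the part of these cells in the results was not tested.

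**Figure D3:**
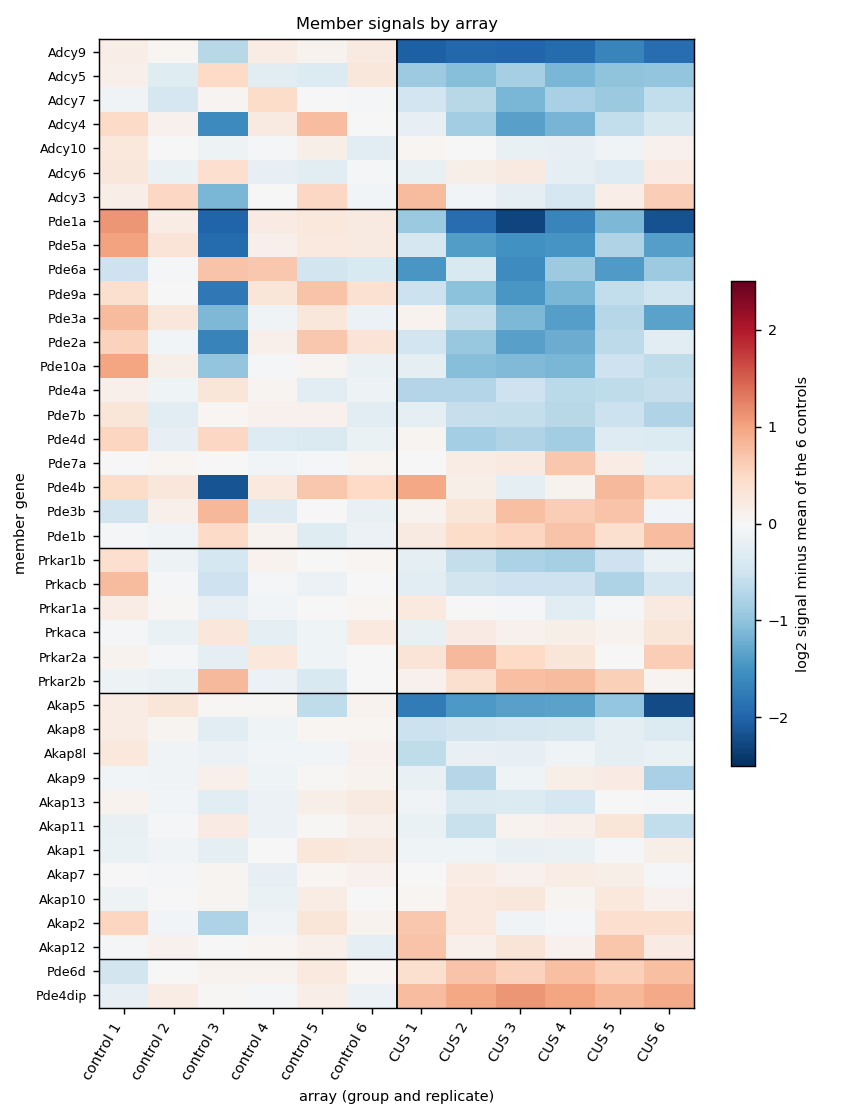
Log2 signal of the 40 tested members on each of the 12 arrays (columns, controls left of the line and CUS right of it), shown as the difference from the mean of the 6 controls and grouped by role. Control replicate 3 is the lowest control for 19 members, among them Pde1a, Pde5a, Pde9a, Pde2a, Pde4b and Adcy4. It is bluer than every CUS column for these except Pde1a, where it lies within the CUS range. For Pde4b most CUS columns lie above the control mean. On the spike-in scale the CUS columns would be redder by 0.83 on average, by amounts that differ between arrays.

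Control replicate 3 was the lowest of the 6 controls for 19 of the 40 tested members, against 25.5% of all tested genes. Without it, 18 members were lower and 7 higher, against 30.5% and 29.2% of all genes. The members gained were Adcy4, Akap8l, Pde2a and Pde9a on the lower side and Pde3b and Prkar2b on the higher side. The spread was wider in controls than in CUS for 31 of the 40 members, although the median SD was 0.28 in both groups. Control SDs reached from 0.05 (Pde7a) to 1.07 (Pde4b), and CUS SDs from 0.09 (Pde4a) to 0.56 (Pde3a).

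All 6 PKA subunit genes were tested, and 2 were lower, 1 higher and 3 not called, with a median difference of 0.06. Of all tested genes 25.8% were lower and 24.2% higher. Spike-in scaling gave 4 higher and 0 lower, with a median of 0.89. Of all genes 63.8% were higher and 2.55% lower on that scale, with a median of 0.80. Prkar2b, the regulatory subunit that predominates in white fat, had a log2 signal of 5.11, 5.54 and 5.82 in CUS and 4.66, 4.89 and 5.84 in controls. The highest of all 12 values was control replicate 3, and the next control stood at 5.04, below every CUS rat. The difference of 0.46 ± 0.20 had an adjusted p of 0.0693, 0.62 with an adjusted p of 0.00295 without that control and 0.53 with an adjusted p of 0.0478 without CUS replicate 6. Prkar2a, the other type II subunit, was called higher at 0.43 ± 0.13 (adjusted p = 0.0177). It was well above background on 4 of 6 controls, and normexp background correction turned it to -0.39.

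Among type I subunits, Prkar1b, known chiefly from brain, was lower in CUS. Its values were -1.35, -1.07 and -0.68 in CUS and -0.95, -0.49 and -0.10 in controls. The ranges overlapped, and the difference was -0.52 ± 0.15 (adjusted p = 0.0145), turned to 0.31 by spike-in scaling. Prkar1a, the subunit of nearly all cells, differed by 0.02 ± 0.10 and was not called. Its probe is placed on chromosome X of rn4, away from the gene, so a near-identical copy may share its signal.

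The catalytic subunit Prkaca, the main one in most tissues, had values of 4.22, 4.53 and 4.70 in CUS and 4.17, 4.33 and 4.68 in controls. The groups overlapped almost wholly and the difference was 0.11 ± 0.11 (adjusted p = 0.434), with a 95% interval of -0.14 to 0.36. Prkacb, the second catalytic subunit, was called lower at -0.49 ± 0.18 (adjusted p = 0.035), with values of -2.88, -2.60 and -2.38 against -2.63, -2.17 and -1.32. It turned to 0.34 with spike-in scaling and lost its call without CUS replicate 2, 3, 4 or 5 or control replicate 2, 4 or 6 (adjusted p up to 0.0744).

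Of the 15 anchoring proteins 11 were tested, and 2 were lower, 1 higher and 8 not called, with a median difference of -0.14. Among all genes 25.8% were lower and 24.2% higher. Spike-in scaling gave 1 lower and 8 higher, with a median of 0.69, against 2.55% lower and 63.8% higher of all genes. Akap5, which holds PKA, protein kinase C and calcineurin at the plasma membrane, changed most. Its values were -6.42, -5.58 and -5.14 in CUS and -4.83, -4.12 and -3.89 in controls. All controls exceeded all CUS rats, and the difference was -1.51 ± 0.21 (2.85-fold lower, adjusted p = 0.000135). It was well above background on all controls and on 3 CUS arrays, and its unscaled intensities of 6.56 to 16.6 in CUS and 12.9 to 27.0 in controls overlapped. The call held in all 23 alternatives that could be run for it, -0.68 with spike-in scaling included.

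Akap8, a nuclear anchor that associates with chromatin, was lower at -0.39 ± 0.09 (adjusted p = 0.00362) and turned to 0.44 with spike-in scaling. Its values were 3.35, 3.48 and 3.66 in CUS and 3.62, 3.94 and 4.07 in controls, so that the ranges met at their edges. Akap12, or gravin, which holds PKA near beta-adrenergic receptors, was higher. Its values were 1.01, 1.16 and 1.61 in CUS and 0.66, 0.92 and 1.03 in controls, with a difference of 0.36 ± 0.13 (adjusted p = 0.0314) and 0.66 ± 0.17 (adjusted p = 0.00666) for its second probe. The first was not called with quantile normalization, nor without CUS replicate 1, 3 or 5 or control replicate 1 or 6 (adjusted p up to 0.0696).

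Akap1, the anchor of the outer mitochondrial membrane, differed by -0.07 ± 0.11 (adjusted p = 0.599) and did not pass. Neither did Akap2 (0.27, now named Pakap), Akap7 (0.09), Akap9 of the Golgi and centrosome (-0.24), Akap11 (-0.14), the nuclear Akap8l (-0.26) or Akap13 (-0.21). Without control replicate 3, Akap8l passed at -0.29 (adjusted p = 0.04). Akap4, Akap6 and Akap14 were never well above background, and Akap3, of the sperm tail, was so on 2 CUS arrays. Akap4, a major protein of the sperm tail, is also in the marker list for epididymis and sperm, of which 3 of 8 markers were tested and 0 called. A group test does not show signal in single rats. Of the tested markers, Lcn5 reached 0.48 in controls (median -2.85), Prm1 0.17 in CUS (median -3.97) and Prm2 -1.70 in CUS (median -2.73). The untested Lcn8 reached 0.84 in controls (median -6.36). The 12 members never well above background had intensities of 2.23 to 6.30 in CUS and 2.21 to 7.84 in controls.

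Probes of a gene need not read the same transcripts, and sequences are shown for 3 probes whose rn4 position spans more bases than the probe holds. Exons were not looked up, so the introns and junctions within these positions are not known here. They were chosen because Akap10 gave different results by probe, Prkacb was called lower and Pde4dip higher. All lie on the minus strand, at chr10:48032418-48037525, chr2:244949415-244954750 and chr2:192534772-192536380. Each probe has 60 bases, and no part is marked in capitals.
Akap10: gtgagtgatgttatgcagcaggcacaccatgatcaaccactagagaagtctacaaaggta
Prkacb: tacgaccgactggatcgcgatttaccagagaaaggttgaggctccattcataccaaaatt
Pde4dip: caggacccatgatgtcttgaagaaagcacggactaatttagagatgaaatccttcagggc

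Akap10 encodes an anchor that binds both types of regulatory subunit. Its brightest probe, at 48031155 to 48031214 of chromosome 10, differed by 0.17 ± 0.08 and was not called (adjusted p = 0.102). The dimmer probe printed above was lower, with values of -3.45, -3.24 and -3.10 in CUS and -2.98, -2.75 and -2.51 in controls. There was no overlap, and the difference was -0.50 ± 0.09 (adjusted p = 0.00107). Of 10 members with several tested probes, Adcy7, Pde7b and Akap12 were called the same way by each. In Pde4a and Akap10 1 of 2 probes was called, and in Akap1, Akap7, Akap11, Pde4d and Prkaca neither was.

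Both tested names outside the enzyme families were higher in CUS. Pde4dip, or myomegalin, anchors Pde4 and PKA at the Golgi and centrosome, and its log2 signal was -3.27, -3.09 and -2.94 in CUS and -4.25, -4.05 and -3.86 in controls. The groups were well apart, with a difference of 0.93 ± 0.09 (adjusted p = 1.52e-05), 1.76 with spike-in scaling and -0.002 after normexp background correction. Pde6d, a chaperone that carries prenylated proteins to membranes, had values of -0.88, -0.63 and -0.51 in CUS and -1.72, -1.21 and -1.03 in controls. These did not overlap either, and the difference of 0.63 ± 0.11 (adjusted p = 0.000901) was called in all 24 alternatives. In all, 7 of the 40 tested members had groups without overlap, against 21.9% of all tested genes. Of the 7, 5 were lower and 2 higher in CUS, against 11.5% and 10.4% of all genes.

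**Figure D4:**
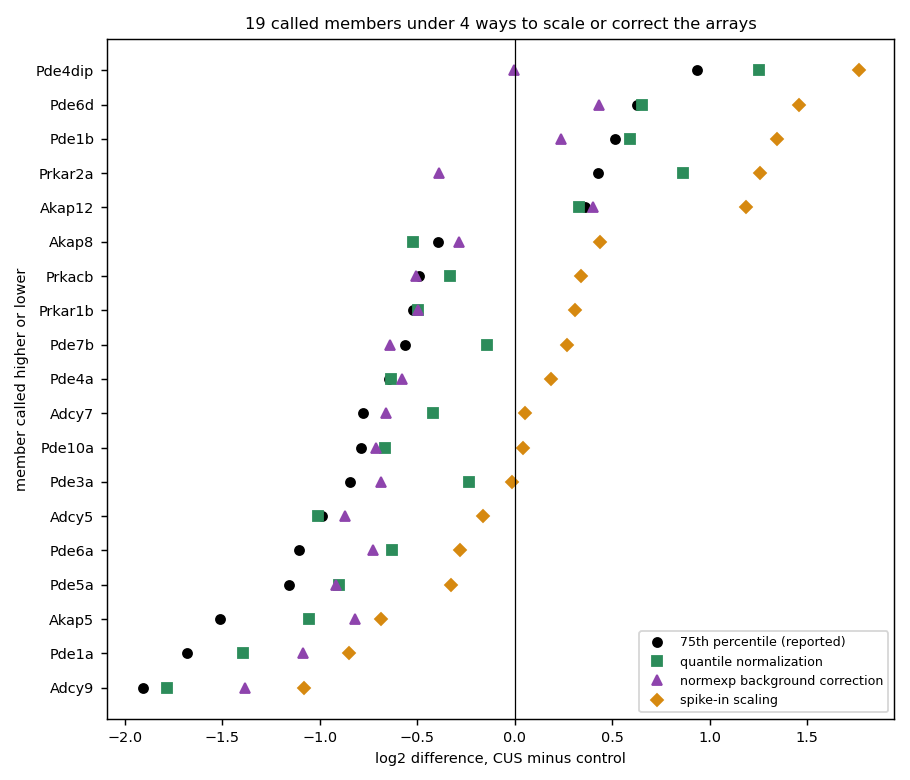
Log2 difference between CUS and control for the 19 called members (rows) under the reported scaling, quantile normalization, normexp background correction and spike-in scaling. Adcy9, Akap5 and Pde6d keep their direction and their call under each, Pde4dip falls to about 0 and Prkar2a below 0 with normexp, and with spike-in scaling Akap8, Prkacb, Prkar1b, Pde7b, Pde4a, Adcy7 and Pde10a lie above 0.

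Whether related genes changed unequally was examined within each array, where a scale factor common to all probes cancels. Effects of array brightness on dim probes do not cancel. Pde3a was well above background on 2 CUS and 4 control arrays only, and Prkar2a on 4 of 6 controls. Some pairs changed with quantile normalization or normexp background correction, as given at the end. Of 8 pairs compared by an exact permutation test over the 924 assignments of the arrays (two-sided), 0 passed after Benjamini-Hochberg adjustment and 4 had an unadjusted p under 0.05. Pde3b minus Pde3a was larger in CUS by 1.24 (exact p = 0.0411, adjusted 0.0909). Prkaca minus Prkacb differed by 0.60 (exact p = 0.0346, adjusted 0.0909). Without control replicate 3 these 2 pairs passed, at 1.64 and 0.76 (exact permutation test, both adjusted p = 0.026). The other two were Pde4d minus Pde4b, at -0.90 (exact p = 0.0455, adjusted 0.0909), and Akap1 minus Akap12, at -0.43 (exact p = 0.0281, adjusted 0.0909). Without control replicate 3, Pde4d minus Pde4b shrank to -0.37. Prkar1a minus Prkar2b differed by -0.44 (exact p = 0.165), Adcy5 minus Adcy4 by -0.23 (exact p = 0.742), Adcy6 minus Adcy3 by -0.16 (exact p = 0.729) and Prkar2b minus Prkar2a by 0.03 (exact p = 0.922).

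**Figure D5:**
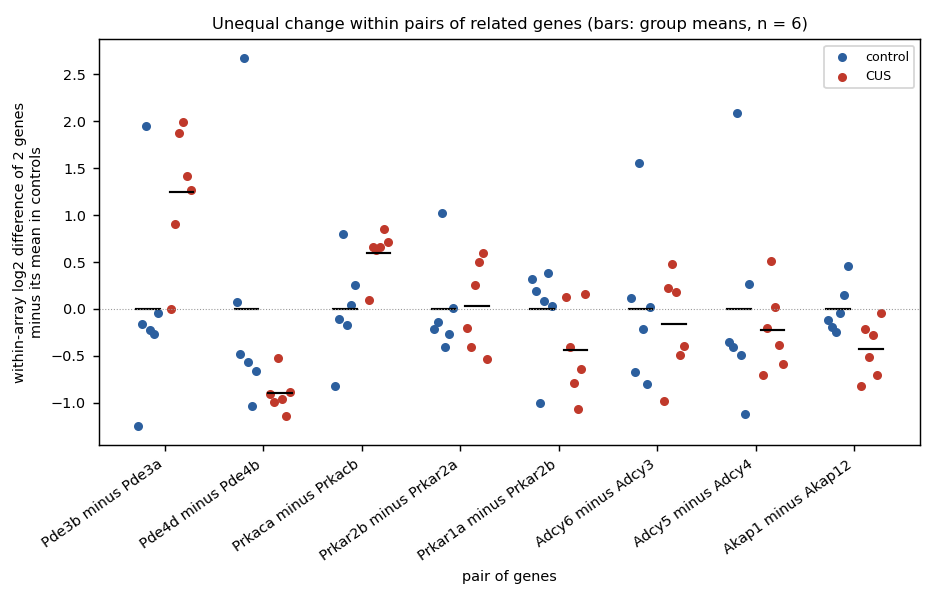
Difference in log2 signal between 2 related genes on each array, for 8 pairs, set to 0 at the mean of the controls (vertical axis), with 1 point per rat and a bar at each group mean (n = 6). The CUS mean is 1.24 above the control mean for Pde3b minus Pde3a and 0.90 below it for Pde4d minus Pde4b, and control replicate 3 is the highest control in both.

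Upstream of the cyclases, 24 genes of Gs-coupled receptors and their G proteins were tested, and 6 were higher and 5 lower, beside 24.2% and 25.8% of all genes. Spike-in scaling gave 16 higher and 0 lower, against 63.8% and 2.55% of all genes. Normexp background correction gave 6 higher and 12 lower, against 22.9% and 44%. Adrb3, the main beta-adrenergic receptor of rodent adipocytes, was higher at 0.34 ± 0.12 (adjusted p = 0.0322), not called with quantile normalization. Mc2r, the receptor for corticotropin, was higher at 1.09 ± 0.23 and Pth1r, for parathyroid hormone, at 0.52 ± 0.08. Vipr1, for vasoactive intestinal peptide, was lower at -1.37 ± 0.25 and Gcgr, the glucagon receptor, at -0.69 ± 0.19. With spike-in scaling neither was called, at -0.54 and 0.14. Gnas, which encodes Gs alpha, differed by 0.14 ± 0.10 (adjusted p = 0.262). On the Gi side 14 genes were tested, with 4 higher and 4 lower, or 9 higher and 0 lower with spike-in scaling. The shares of all genes were again 24.2% and 25.8%, or 63.8% and 2.55% with spike-in scaling. The prostaglandin E2 receptor Ptger3 was higher at 0.75 ± 0.20 and the G protein Gnao1 at 0.43 ± 0.12. After normexp background correction Gnao1 was 0.02 and not called. Ffar2, for short-chain fatty acids, was lower at -0.56 ± 0.14 and the alpha-2 adrenergic Adra2b at -0.69 ± 0.18, turned to 0.27 and 0.14 by spike-in scaling.

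Of 10 tested PKA inhibitors and other proteins that bind or export cyclic AMP, 6 were lower and 1 higher, with a median difference of -0.48, beside 25.8% and 24.2% of all genes. Spike-in scaling gave 2 lower and 2 higher, with a median of 0.34, against 2.55% lower and 63.8% higher of all genes. Abcc4, which exports cyclic nucleotides, was lower at -2.11 ± 0.24 and was called with spike-in scaling too, at -1.28. The channel gene Hcn3 was lower at -1.11 ± 0.17, and Rapgef3, or Epac1, at -1.06 ± 0.29. Neither of them was called with spike-in scaling, at -0.28 and -0.23. Pkig, a PKA inhibitor peptide, at -0.44 ± 0.10, and the kinase Prkx, at -0.53 ± 0.11, were lower and turned to 0.39 and 0.30 with spike-in scaling. The 13 tested anchors with other names held 2 higher and 6 lower, beside 24.2% and 25.8% of all genes. Spike-in scaling made that 8 higher and 0 lower, beside 63.8% and 2.55%. Among these anchors were Ezr at 0.81 ± 0.13, Opa1 at 0.37 ± 0.11, Cbfa2t3 at -1.07 ± 0.34 and Gskip at -0.31 ± 0.10. Cbfa2t3 was not called with quantile normalization (-0.69) or spike-in scaling (-0.24), and spike-in scaling turned Gskip to 0.52. Opa1 was 0.22 and not called after normexp background correction. Of other phosphodiesterases, the mitochondrial nuclease Pde12 was lower at -0.87 ± 0.28, and quantile normalization left it uncalled.

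Downstream, the CREB family and its coactivators had 3 higher and 3 lower among 13 tested, or 8 higher and 0 lower with spike-in scaling. Of all genes 24.2% were higher and 25.8% lower, or 63.8% and 2.55% with spike-in scaling. Crem, whose short isoform cyclic AMP induces, was higher at 1.14 ± 0.12 and stayed called under each scaling, while Crtc3 was lower at -0.92 ± 0.12, Crebbp at -0.89 ± 0.13 and Ep300 at -0.39 ± 0.09. With spike-in scaling none of these 3 was called, at -0.088, -0.062 and 0.44. Creb1 differed by -0.19 ± 0.12 (adjusted p = 0.192). Of 9 tested genes that cyclic AMP induces in many cells, 3 were higher and 1 lower, beside the same shares of all genes. Spike-in scaling gave 6 higher and 0 lower in this list. Besides Crem the called genes were Fos at 0.92 ± 0.16, Pck1 at 0.64 ± 0.20 and Per1 at -0.74 ± 0.13, the last 0.09 with spike-in scaling. Among 5 genes of adipocyte lipolysis, Mgll was higher at 0.74 ± 0.12 and Abhd5 at 0.72 ± 0.13. Plin1, the perilipin of the lipid droplet, was lower at -0.60 ± 0.16, turned to 0.23 by spike-in scaling, and Lipe, hormone-sensitive lipase, differed by -0.02 ± 0.19 (adjusted p = 0.922).

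RefSeq promoters of build GRCr8, from 250 bases before to 50 after a start, were found for 42 of the 54 members, 57 promoters in all. The full cyclic AMP response element TGACGTCA was found in 0 of the 57 and in 1.83% of 33469 promoters. Its core TGACG, searched on both strands and contained in the full element, was found in 14 of the 57 (24.6%) and in 21.2% of all. Among promoters of members lower in CUS 6 of 18 held the core, and among those of members not called 7 of 23, while none of the 3 of members higher in CUS did.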

How the data were processed

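Cy3-labelled total RNA of each rat's epididymal adipocytes was put on a 1-colour Agilent array. The authors deposited spot intensities from the scanner, for which Agilent Feature Extraction 10.7.3.1 had, per the headers, subtracted background, removed spatial trends and set surrogates for signals not above background, with no scaling between arrays. The table of quantile normalized intensities that the authors deposited was an alternative. Each array held 62976 spots, of which 58717 were not controls. Outlier spots were left out, the 30367 probes averaged, and log2 intensities centred on the 75th percentile. Tested were 19727 probes of 17417 genes, 50 of 68 member probes among them.

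The 2 groups were compared by limma (3.58.1, under R 4.3.3), two-sided and without covariates. Rats were not treated as paired by replicate number. Correlations of deviations between same-numbered arrays ran from -0.19 to 0.43. They were not set against those of differently numbered arrays, so pairing was not tested. Group p-values measure the spread between rats. Alternatives covered scaling, background correction, filter, probe choice, variance model, the methods' t-test, a block and leaving out each rat. The fit was tested on simulated data. Members and gene lists were chosen with earlier results of these data known. Every member may be named; of each other list, the 4 genes with the smallest adjusted p and Adrb3, Gnas, Lipe, Plin1, Rapgef3, Creb1 and Pkig. Names were updated through RefSeq for 53 members. Tables were made with Python 3.11.15, pandas 2.3.3, NumPy 2.4.6 and SciPy 1.17.1. The number of arrays, 6 a group, limits the precision.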

Additional observations from a re-analysis of the deposited data

Results flagged for a closer look

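In 13 of 80 groups of 6 values (40 members, each in CUS and control) 1 rat stood apart from the rest by Dixon's criterion at 95%, which chance meets in about 1 group in 20. Control replicate 3 was the rat in 9 of them. It was the lowest control for Adcy3 (-5.68), Adcy4 (-2.73), Adcy9 (-1.75), Pde1a (-4.54), Pde2a (2.78), Pde4b (-4.72), Pde5a (-4.45) and Pde9a (-2.37), and the highest for Prkar2b (5.84), all as log2 signal. The same array had the highest summed adipocyte markers, 11.29 against 10.32 to 10.50 in the other controls, and the lowest summed stromal markers, 5.55 against 6.93 to 7.25.

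The other 4 flags were on different rats. CUS replicate 5 was the highest CUS rat for Adcy9 (-2.71), CUS replicate 1 the lowest for Akap8l (-0.871), control replicate 5 the lowest control for Akap5 (-4.83) and control replicate 1 the lowest for Pde6d (-1.72).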

How the results depend on the processing

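Of the 19 called members, Adcy9 and Pde6d kept direction and call in 24 alternatives and Akap5 in 23. Spike-in scaling gave 21 members higher and 2 lower, against 63.8% and 2.55% of all genes. It took 11 and 1 of these members to at least 2-fold. It turned Adcy4 (0.064), Adcy6 (0.80), Adcy7 (0.050), Adcy10 (0.77), Akap1 (0.76), Akap8 (0.44), Akap8l (0.57), Akap9 (0.59), Akap11 (0.69) and Akap13 (0.62). It also turned Pde2a (0.0030), Pde4a (0.19), Pde4d (0.32), Pde7b (0.27), Pde10a (0.041), Prkacb (0.34) and Prkar1b (0.31). Quantile normalization and the authors' table each gave 4 higher and 9 lower, of which 1 and 4 at least 2-fold. Of all genes 27% and 26.9% were higher and 20.6% and 20.4% lower. Both turned Adcy6 (0.089 and 0.096), Adcy10 (0.16 and 0.17), Prkar1a (-0.032 and -0.031) and Prkar2b minus Prkar2a (-0.48 and -0.49). Normexp gave 3 higher and 21 lower, of which 0 and 2 at least 2-fold. Of all genes 22.9% were higher and 44% lower. Normexp turned Adcy3 (-0.45), Akap1 (0.0012), Pde4b (-0.093), Pde4dip (-0.0021), Prkar2a (-0.39) and Adcy6 minus Adcy3 (0.26). It took Pde3b minus Pde3a (1.11), Prkaca minus Prkacb (0.70) and Prkar2b minus Prkar2a (0.94) past the threshold. With untested dim probes included, 24 of 54 members were lower and 6 higher, against 42.5% and 16.4% of all genes. Probes well above background on all 12 arrays left 3 lower at least 2-fold. Array weights gave 9 higher and 19 lower, against 32.5% and 34.1% of all genes. Of these members 0 and 10 differed at least 2-fold. The weights turned Adcy3 (-0.30), Adcy6 (0.10), Pde4b (-0.066) and Prkar1a (-0.065). Median centring turned Adcy6 (0.0054), and the mean of tested probes turned Akap1 (0.16) and Akap10 (-0.16). The methods' t-test called 10 lower and 5 higher after adjustment, against 23.9% and 24.1% of all genes. At the authors' unadjusted threshold with a 2-fold change it called 5 lower and 0 higher, against 1539 and 564 of 17417 genes. The cause of each change was not tested.

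With the replicate number as a block, 18 members were lower and 6 higher, against 27.6% and 24.7% of all genes. Leaving out 1 rat gave 4 to 7 higher, 10 to 18 lower, and 4 to 8 lower at least 2-fold, the highest each time without control replicate 3. Of all genes 21% to 29.2% were then higher and 22.4% to 30.5% lower, the highest again without that control. Pde3a and Prkacb were lost with several single rats left out, as were Pde5a, Pde10a and Akap12. It also moved Adcy3 from -0.092 to 0.25, Adcy6 from -0.085 to 0.056, Pde4b from -0.044 to 0.52 and Prkar1a from -0.026 to 0.078, where the lowest values of Adcy3 and Pde4b were those without control replicate 3. The pairs ranged from -0.45 to 0.19 (Adcy5 minus Adcy4), -0.32 to 0.15 (Adcy6 minus Adcy3), -0.081 to 0.24 (Prkar2b minus Prkar2a), 0.99 to 1.64 (Pde3b minus Pde3a), -1.11 to -0.37 (Pde4d minus Pde4b), -0.64 to -0.31 (Prkar1a minus Prkar2b), -0.51 to -0.34 (Akap1 minus Akap12) and 0.44 to 0.76 (Prkaca minus Prkacb). Dim probes are limited by signal over background.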
